A study of Mus musculus with 8 samples.

Results

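A set of 35 genes known as transcriptional targets of p53, listed by name for roles other than apoptosis and the core repair machinery, was followed in the embryonic mouse kidney, in p53 null against p53 wild-type organs. Probes were assigned to them through the RefSeq accession on the array, without use of any measured value. Of the 35 listed genes, 33 had at least 1 probe (49 probes in all), and 28 were bright enough to be tested, among 12000 tested genes of the whole series. Both genotypes were C57BL/6 embryos at embryonic day 15.5, a stage at which nephrons are still forming. The labels name no treatment. They do not say what kind of null allele was used, what sex the embryos were or how many embryos each RNA came from. Null and wild-type kidney RNA were hybridised together, in different dyes, on each of 8 arrays. Per the labels, replicates are biological: 4 arrays belong to replicate 1, 2 to replicate 2 and 2 to replicate 3. Dyes were swapped so that null was in Cy5 on 4 of the 8.

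p53, encoded by Trp53, is a transcription factor that stress stabilises and that its target Mdm2 keeps low in unstressed cells. Many of its targets do not kill the cell: some halt the cell cycle, some feed back on p53 itself, and others act in nutrient sensing, lipid and carbohydrate metabolism, adhesion or the cytoskeleton. The tumour suppressor is also known to act in kidney development, where the balance of p53 and Mdm2 affects nephron progenitors.

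Ratios are null over wild type on the log2 scale, summarised by their mean and SD across replicates (n = 3). Levels are normalized log2 intensities of each colour channel. A gene is represented by its brightest tested probe. Ratios were tested against 0 with limma's moderated fit, and p-values were adjusted over all 20865 probes by the Benjamini-Hochberg method with 0.05 as the threshold. An exact sign permutation with 3 values has a smallest p of 0.25. The p-values treat the 3 replicates as independent.

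Replicate 1 was hybridised on slide 1 and replicates 2 and 3 on slide 2, per the file headers. Across all tested probes the ratios of replicates 2 and 3 correlated at 0.93, whereas those of replicates 1 and 2 correlated at 0.06 and those of replicates 1 and 3 at −0.15 (a description across probes, which are not replicates). In the null channel the difference between replicates 2 and 3 had an SD over probes of 0.170 (log2), against 0.116 between repeat hybridisations of replicate 1. In the wild-type channel these SDs were 0.108 and 0.117, so wild-type replicates 2 and 3 differed by no more than repeats of a single RNA. The labels do not say whether replicates 2 and 3 share a wild-type RNA. The names of their scanner files, however, give the wild-type channels of both the same sample number and the null channels different ones. If the wild-type RNA was shared, p-values that treat these replicates as independent are too small. Results are therefore given for each replicate, and also with 1 value per slide. The share of probes well above background was 57.8% to 60.6% for null and 60.3% to 62.8% for wild type on slide 1, and 50.1% to 51.4% for null and 46.9% to 48.0% for wild type on slide 2. Kidney identity was visible in both genotypes: the 12 measured of 14 listed kidney markers, among them Six2, Pax2 and Wt1, exceeded background clearly on each of the 8 arrays in each channel. In whole organs, fewer cells of a type and less RNA per cell cannot be told apart.

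The targeted gene, Trp53, had ratios of −1.08, −0.47 and −0.45 in replicates 1, 2 and 3 and was lower in null on all 8 arrays (−0.67 ± 0.36, limma, adjusted p = 0.279). Its levels were 7.998, 8.292 and 8.283 in null kidneys, against 9.082, 8.767 and 8.731 in wild-type kidneys, so this probe still gave signal in null. The source of that signal was not tested. A dimmer second Trp53 probe gave 0.01, 0.28 and 0.18 (0.16 ± 0.13), and both probes were well above background in each channel of every array. The labels do not say which part of the gene is missing, and a probe that lies outside it is no check of the genotype.

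For the 2 tested members whose promoter held a match to the p53 binding motif, the sequence before the start site is printed here, from RefSeq promoters of GRCm38.p6. Promoters running from 250 bases before to 50 bases after each start were searched for the p53 consensus motif, a pair of 10-base half-sites with at most 1 base between them and at most 2 mismatches in all. The half-site reads the same on both strands, so the search covers both. Of the 35 genes, 30 were in the table, with 49 promoters, and 3 of these (10%) held a match, Ccng1, Polk and Gtse1, against 2.09% of 27025 genes (1.78% of 32851 promoters). The Ccng1 window (chr11:40755287-40755536, minus strand) and the Polk window (chr13:96519188-96519437, minus strand) are the 250 bases before an annotated start, 5′ to 3′, with the match in capitals. Polk has a further annotated start, upstream on the minus strand, and its promoter (chr13:96542530-96542829) holds no match (at best 6 mismatches). The printed Polk window thus lies before the more downstream start.
Ccng1: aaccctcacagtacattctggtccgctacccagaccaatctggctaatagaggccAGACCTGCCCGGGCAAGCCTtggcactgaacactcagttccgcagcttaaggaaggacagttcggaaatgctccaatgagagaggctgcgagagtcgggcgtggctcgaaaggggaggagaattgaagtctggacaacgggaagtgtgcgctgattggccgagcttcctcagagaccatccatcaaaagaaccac
Polk: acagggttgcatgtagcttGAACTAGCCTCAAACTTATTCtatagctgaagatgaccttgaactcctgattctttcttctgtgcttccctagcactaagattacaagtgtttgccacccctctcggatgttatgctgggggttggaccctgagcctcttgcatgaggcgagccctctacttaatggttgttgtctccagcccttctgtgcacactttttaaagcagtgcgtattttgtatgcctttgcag
Each match has 1 mismatch. The half-sites of Ccng1 abut, and those of Polk are 1 base apart. A match is a description of the letters in this window, and no match says only that these letters are not in it.

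By the sign of the mean ratio the 28 tested genes were evenly split. Of these, 14 had a mean ratio below 0 and 14 above it, and their median was −0.01, against 0.00 over all tested genes. Their medians in replicates 1, 2 and 3 were −0.07, −0.02 and −0.04, against −0.02, 0.02 and 0.03 over all tested genes, and so lower in each replicate. None of the 28 passed the threshold in limma's test, as 0% of all 12000 genes did. At an unadjusted p under 0.05, 7 members (25.0%) were lower in null, against 8.93% of all genes, and 1 (3.57%) was higher, against 9.23%. In all 3 replicates 9 members (32.1%) were lower, namely Ccng1, Psrc1, Pltp, Cyfip2, Cd82, Dcxr, Ephx1, Polk and Tap1, beside 19.7% of all genes. Another 5 (17.9%) were higher in all 3, namely Plk3, Trp53inp1, Sesn1, Gadd45a and Zmat3, beside 20.4%. The other 14 had mixed signs. On all 8 arrays 4 members, Ccng1, Pltp, Cyfip2 and Ephx1, were lower (7.91% of all genes were), and 0 members were higher on all 8 (7.58% of all genes were).

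**Figure D1:**
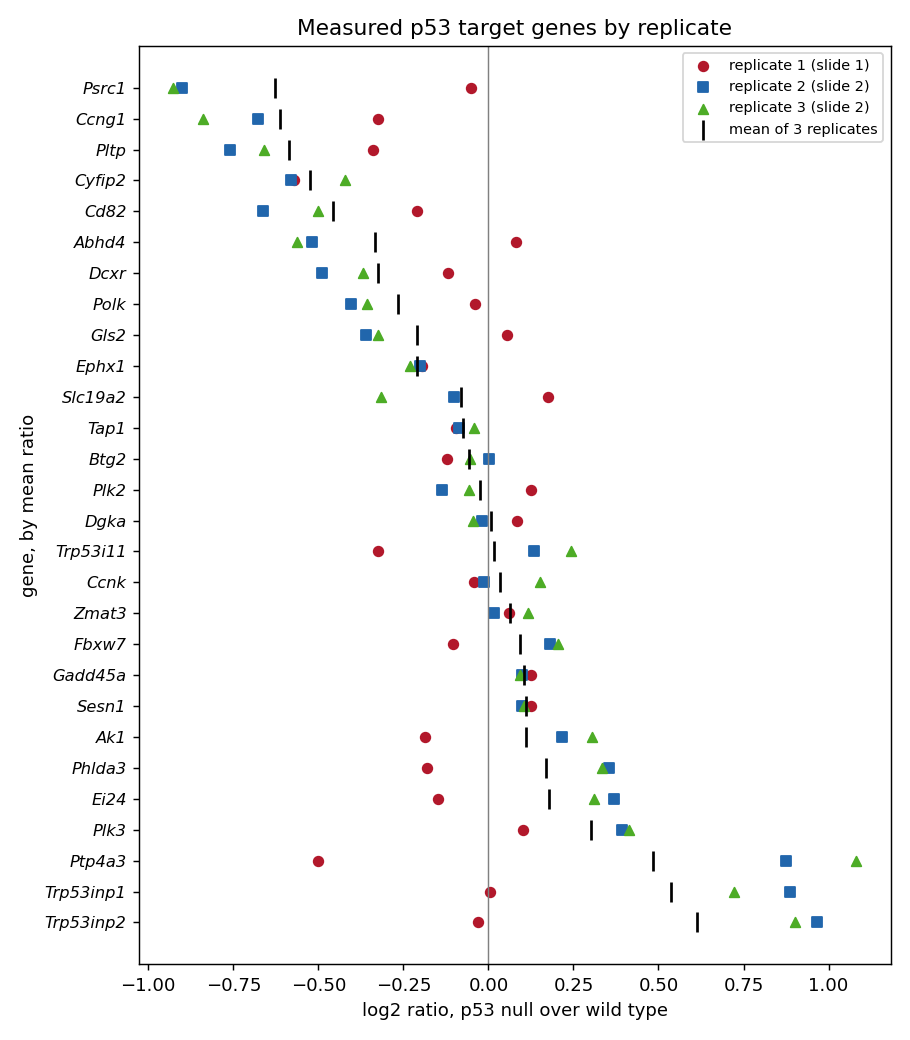
Log2 ratio of null over wild type (x axis) of each of the 28 tested genes (y axis, in the order of their means), with a symbol per replicate and a bar at the mean of 3 replicates. Psrc1, Ccng1 and Pltp lie at the low end with means of −0.63, −0.61 and −0.59, and Trp53inp2 lies at the high end with 0.61; for most genes the points of replicates 2 and 3 lie close together and apart from replicate 1.

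Among genes of the cell cycle and of feedback on p53, Ccng1 and Psrc1 had the lowest ratios in null. Ccng1 encodes cyclin G1, which brings the phosphatase PP2A to Mdm2. Its levels in replicates 1, 2 and 3 were 7.74, 8.51 and 8.34 in null kidneys, against 8.06, 9.18 and 9.18 in wild-type kidneys. Null was the lower channel in each replicate, although the 2 ranges overlap, since both genotypes read lower on slide 1. The ratios were −0.32, −0.68 and −0.84, with a mean of −0.61 ± 0.26, or 65.4% of the wild-type level (limma, adjusted p = 0.279). By dye, the mean was −0.36 with null in Cy5 and −0.87 with null in Cy3. A second Ccng1 probe gave −0.39, −0.49 and −0.45 and was likewise lower on all 8 arrays.

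Psrc1 encodes a proline- and serine-rich coiled-coil protein that binds microtubules of the mitotic spindle. Its brightest probe read 11.44, 12.00 and 12.09 in null kidneys, against 11.49, 12.90 and 13.01 in wild-type kidneys. The genotypes lay close in replicate 1 and apart in replicates 2 and 3, with ratios of −0.05, −0.90 and −0.93 (−0.63 ± 0.50, 64.8% of wild type, limma, adjusted p = 0.284). The other 2 Psrc1 probes were lower in replicate 1 as well. They gave −0.72 ± 0.13 and −0.69 ± 0.13, were lower on all 8 arrays, and had adjusted p = 0.279 in limma's test.

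Plk3, a polo-like kinase of the stress response, was the 1 member with a higher value at an unadjusted p under 0.05. Its levels were 7.38, 7.88 and 7.79 in null kidneys and 7.28, 7.48 and 7.38 in wild-type kidneys. Null was higher in each replicate, by 0.10, 0.39 and 0.41, and on 7 of 8 arrays (0.30 ± 0.17, limma, adjusted p = 0.281). Its relative Plk2, also a polo-like kinase, had mixed signs and a mean of −0.02.

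Gadd45a, a growth arrest and DNA damage protein that binds stress kinases, differed little but in the same direction in each replicate. Its levels were 9.22, 7.32 and 7.39 in null kidneys and 9.10, 7.22 and 7.29 in wild-type kidneys, so the slides differed far more than the genotypes. The ratios were 0.12, 0.10 and 0.09 (0.11 ± 0.02, adjusted p = 0.442 in limma's test). Btg2, an antiproliferative cofactor of mRNA decay, had means of −0.06, −0.12 and −0.08 on its 3 probes. Fbxw7, the substrate receptor of a ubiquitin ligase that degrades cyclin E, had 0.09, and Ccnk, a cyclin that partners kinases of RNA polymerase II, had 0.03. Gtse1, a microtubule protein that opposes p53, was well above background on 0 of 8 arrays in both genotypes.

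Of the genes named for their induction by p53, Trp53inp1 and Trp53inp2 had the highest mean ratios of the set, and their high values were those of slide 2. Trp53inp1 encodes a nuclear protein that acts in autophagy and in the stress response. It read 10.31, 9.52 and 9.46 in null kidneys, against 10.30, 8.64 and 8.74 in wild-type kidneys. The genotypes were level in replicate 1 and apart in replicates 2 and 3 (0.00, 0.89 and 0.72, mean 0.54 ± 0.47, adjusted p = 0.291 in limma's test). The dimmer Trp53inp1 probe gave −0.95, 0.57 and 0.73, so its sign differed between the slides.

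Trp53inp2, a relative that acts in autophagy, read 10.85, 10.88 and 10.89 in null kidneys, against 10.88, 9.91 and 9.99 in wild-type kidneys. Null levels were nearly equal in all 3 replicates, and the wild-type levels of slide 2 lay below that of slide 1. The ratios were −0.03, 0.97 and 0.90 (0.61 ± 0.56, 153% of wild type, adjusted p = 0.295 in limma's test). Trp53i11 had −0.32 in replicate 1 and 0.13 and 0.24 in replicates 2 and 3, with a mean of 0.02.

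Sesn1 encodes a sestrin that restrains mTORC1. Its levels were 11.50, 12.02 and 12.12 in null kidneys and 11.37, 11.92 and 12.02 in wild-type kidneys, a small difference in one direction. The ratios were 0.12, 0.10 and 0.11 (0.11 ± 0.01, adjusted p = 0.426 in limma's test), and its other probes gave 0.07 and 0.04. Zmat3, a zinc finger protein that binds RNA, read 8.29, 7.07 and 7.13 in null kidneys and 8.23, 7.05 and 7.01 in wild-type kidneys (0.06 ± 0.05). Phlda3, which restrains Akt, and Ei24, a membrane protein of the endoplasmic reticulum, had mixed signs: −0.18, 0.36 and 0.33 for Phlda3, and −0.15, 0.37 and 0.31 for Ei24. For Eda2r, the receptor of an ectodysplasin isoform, no array of the 8 was well above background in null or wild type.

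Among metabolic and transport genes, Pltp, Dcxr and Ephx1 were lower in null in each replicate. Pltp encodes the phospholipid transfer protein of plasma lipoproteins. It read 7.13, 8.05 and 8.16 in null kidneys, against 7.47, 8.82 and 8.82 in wild-type kidneys. Null was the lower channel on all 8 arrays, with ratios of −0.34, −0.76 and −0.66 (−0.59 ± 0.22, 66.6% of wild type, adjusted p = 0.279 in limma's test). Its mean was similar in the 2 dye orientations, −0.61 with null in Cy5 and −0.56 with null in Cy3.

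Dcxr encodes a reductase of dicarbonyl compounds and xylulose. Its levels were 8.78, 9.46 and 9.72 in null kidneys and 8.90, 9.95 and 10.09 in wild-type kidneys. The ratios, −0.12, −0.49 and −0.37, were negative on 6 of 8 arrays (−0.32 ± 0.19, 79.9% of wild type, adjusted p = 0.279 in limma's test). Its second probe gave −0.08, −0.45 and −0.25.

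Ephx1, the microsomal epoxide hydrolase, had the most even ratios of the genes with lower values. It read 6.73, 7.24 and 7.32 in null kidneys and 6.92, 7.44 and 7.55 in wild-type kidneys. The ratios were −0.19, −0.20 and −0.23 (−0.21 ± 0.02, 86.5% of wild type, adjusted p = 0.284 in limma's test), and null was lower on all 8 arrays. A second probe gave −0.15, −0.27 and −0.24, also lower on all 8.

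Abhd4, a lipid hydrolase, and Gls2, a mitochondrial glutaminase, were lower in both replicates of slide 2 and not in replicate 1. Abhd4 had 0.08, −0.52 and −0.56, and Gls2 had 0.05, −0.36 and −0.32. The adenylate kinase gene Ak1 had the opposite arrangement, with −0.19, 0.22 and 0.30. The thiamine transporter gene Slc19a2 had 0.18, −0.10 and −0.32, and Dgka, a diacylglycerol kinase, averaged 0.01. Steap3, a ferrireductase, and Rrm2b, a ribonucleotide reductase subunit that supplies nucleotides, reached a level well above background on 0 of 8 arrays, for null and wild type alike.

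Among genes of the membrane, adhesion and the cytoskeleton, Cyfip2 had the smallest unadjusted p of the set when each gene was read by its brightest probe. It encodes a subunit of the WAVE complex, which drives actin branching. Its levels were 7.82, 8.23 and 8.51 in null kidneys, against 8.39, 8.81 and 8.94 in wild-type kidneys. Null was lower on both slides, with ratios of −0.57, −0.58 and −0.42 (−0.52 ± 0.09, 69.5% of wild type, unadjusted p = 0.00192, adjusted p = 0.279, limma). This SD and p leave out the spread between arrays of a replicate. The arrays of replicate 1 ran from −1.08 to −0.32, and the lowest is flagged below. A dimmer probe of the gene did not follow the brightest one in replicate 1, with 0.13, −0.28 and −0.28 (−0.14 ± 0.23, adjusted p = 0.520 in limma's test).

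Cd82 encodes a tetraspanin known as a metastasis suppressor. It read 10.19, 10.18 and 10.48 in null kidneys, against 10.40, 10.84 and 10.98 in wild-type kidneys, and the 2 ranges overlap. The ratios were −0.21, −0.66 and −0.50 (−0.46 ± 0.23, adjusted p = 0.279 in limma's test), negative on 7 of 8 arrays. They differed by dye, with −0.71 when null was in Cy5 and −0.21 when null was in Cy3.

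Ptp4a3, a phosphatase associated with metastasis, had the widest spread of the set. Its levels were 9.82, 10.59 and 10.86 in null kidneys and 10.33, 9.72 and 9.77 in wild-type kidneys. The genotypes were in opposite order on the 2 slides, with ratios of −0.50, 0.87 and 1.08 (0.49 ± 0.86, adjusted p = 0.481 in limma's test). Its dimmer probe gave −0.12, 0.07 and 0.06. Tap1, a peptide transporter of antigen presentation, read 6.50, 6.60 and 6.67 in null kidneys and 6.60, 6.69 and 6.71 in wild-type kidneys (−0.07 ± 0.03), and was well above background on 6 of 8 arrays in each genotype. Rap2b, a small GTPase, was above background on the 4 arrays of slide 1 alone and was not tested. No probe was matched to Lif, a cytokine, or Sco2, a copper chaperone of cytochrome oxidase.

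Polk encodes DNA polymerase kappa, which copies past damaged bases, and is the second printed promoter with a match. Its levels were 7.092, 7.003 and 7.006 in null kidneys, against 7.132, 7.405 and 7.362 in wild-type kidneys. Null was lower in each replicate and on 6 of 8 arrays. The margin in replicate 1 was small, with ratios on its arrays from −0.16 to 0.04. The ratios were −0.04, −0.40 and −0.36 (−0.27 ± 0.20, 83.2% of wild type, adjusted p = 0.303 in limma's test). A second Polk probe was well above background on 0 of 8 arrays.

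**Figure D2:**
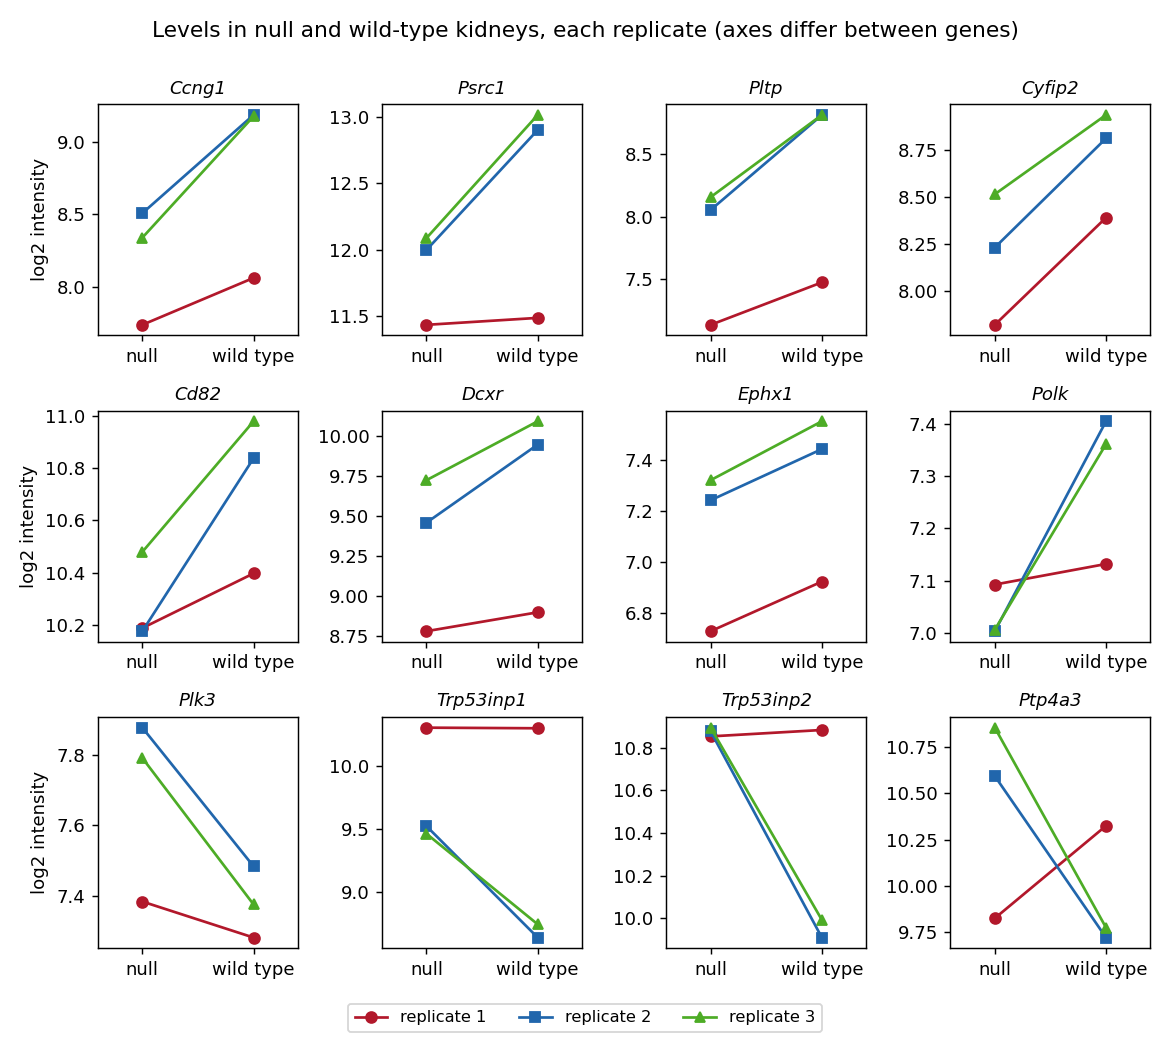
Log2 intensity (y axes, which differ between genes) in null and wild-type kidneys for 12 members, with a line joining the 2 channels of each replicate. Lines for Ccng1, Pltp, Cyfip2 and Ephx1 run upwards to wild type in each replicate, whereas those of Ptp4a3 cross, from 9.82 in null and 10.33 in wild type in replicate 1 to 10.86 in null and 9.77 in wild type in replicate 3.

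More than 1 probe was tested for 10 members, which gives a further reading of the same RNA. Probes of Ccng1, Dcxr, Ephx1 and Psrc1 all had mean ratios below 0, between −0.72 and −0.21, as did those of Cyfip2 and Btg2, between −0.52 and −0.06. Probes of Sesn1 and Fbxw7 had means between 0.04 and 0.11. For Ptp4a3 the mean was 0.49 on the brighter probe and 0.00 on the dimmer one, and for Trp53inp1 it was 0.54 on the brighter probe and 0.12 on the dimmer one.

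**Figure D3:**
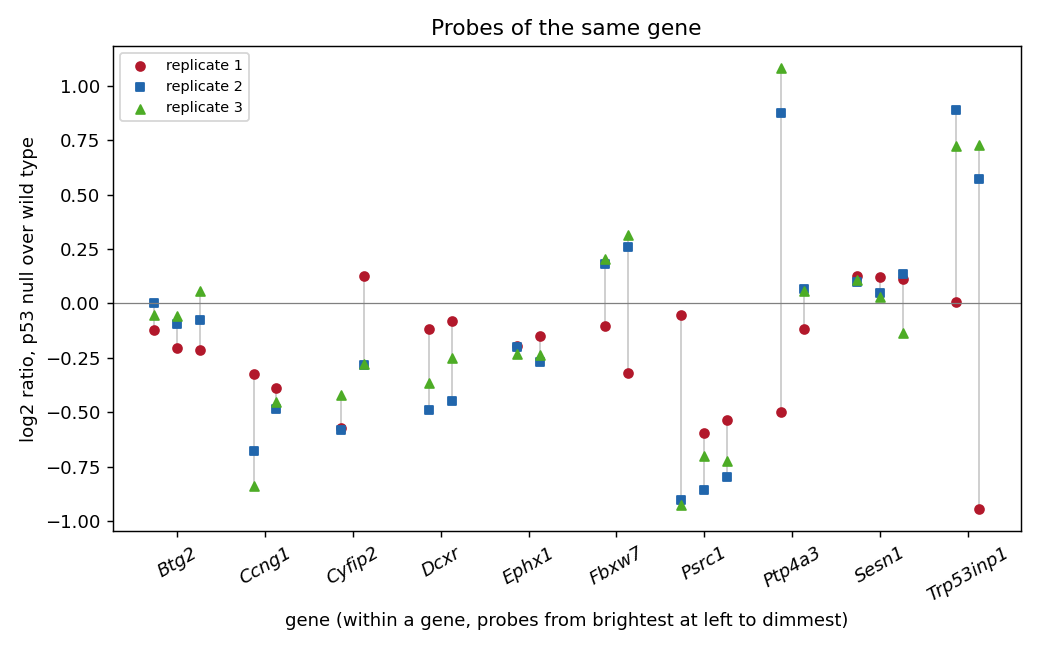
Log2 ratio of null over wild type (y axis) of each tested probe of the 10 genes with several probes (x axis, brightest probe at the left within a gene), with a symbol per replicate and a line over their range. Both Ephx1 probes lie within −0.27 to −0.15, whereas the second Trp53inp1 probe spans −0.95 to 0.73.

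The slides differed in how far the members moved. The median absolute ratio of the 28 genes was 0.12 on slide 1 and 0.34 on slide 2, beside 0.14 and 0.22 over all genes. In replicates 2 and 3 the sign was the same for 26 of 28 members (92.9%), beside 85.6% of all genes. In both, 14 members were lower and 12 were higher, beside 4713 and 5558 of all 12000 genes. With replicates 2 and 3 alone, limma called 11 members lower, against 27.2% of all genes, and 9 higher, against 32.9%. These 11 were Psrc1, Ccng1, Pltp, Cd82, Abhd4, Cyfip2, Dcxr, Polk, Gls2, Ephx1 and Slc19a2, and the 9 were Ptp4a3, Trp53inp2, Trp53inp1, Plk3, Phlda3, Ei24, Ak1, Fbxw7 and Trp53i11. That fit rests on 2 replicates of 1 slide whose wild-type channels differed by no more than repeats of a single RNA. With 1 value per slide, 0 members passed (adjusted p = 0.9997 for each), and 3, Ccng1, Pltp and Cyfip2, were lower at an unadjusted p under 0.05, against 1.52% of all genes. With slide as a fixed block, limma called 9 members lower, against 22.7% of all genes, and 4 higher, against 20.4%.

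When every array was fitted, with replicate as a random block, limma called 4 members lower and 0 higher, against 3.08% and 3.10% of all genes. They were Ccng1 (adjusted p = 0.0318 in limma's test), Cd82 (0.0363), Psrc1 (0.0448) and Pltp (0.0481). This fit takes replicates 2 and 3 as independent, and it borrows strength from repeat arrays of one RNA pair.

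**Figure D4:**
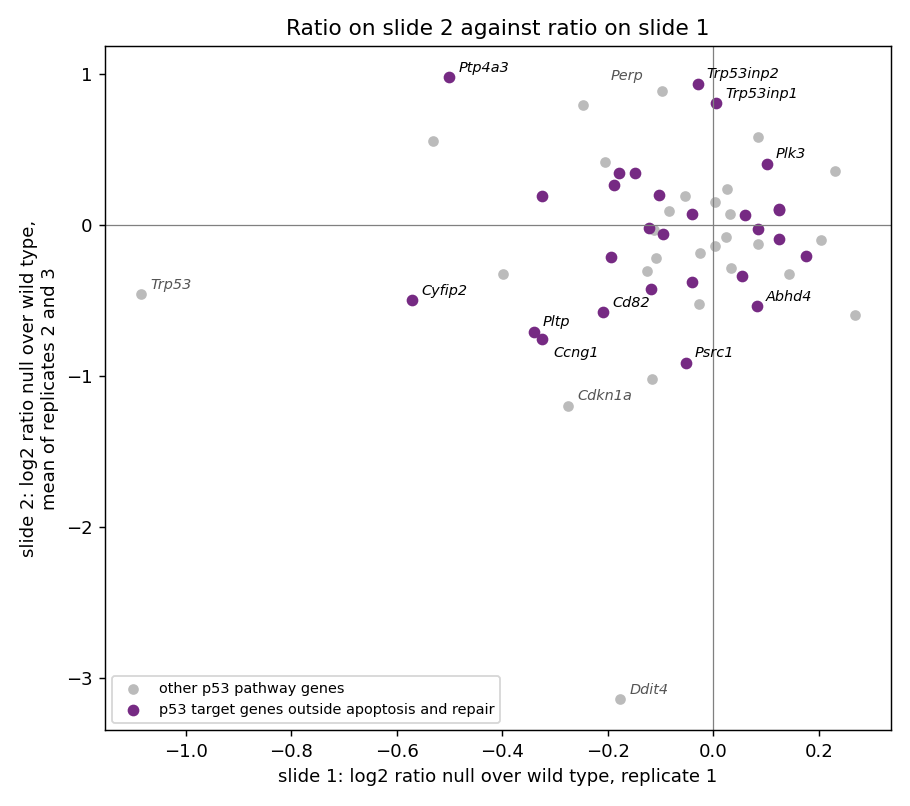
Log2 ratio of null over wild type in replicate 1 on slide 1 (x axis) against the mean of replicates 2 and 3 on slide 2 (y axis), with purple points for the p53 target genes described here and grey points for other p53 pathway genes. Cyfip2 (−0.57 and −0.50), Ccng1 (−0.32 and −0.76) and Pltp (−0.34 and −0.71) lie below 0 on both axes, while Ptp4a3 lies at −0.50 and 0.98.

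For the rest of the pathway, 28 of 29 listed genes of arrest, apoptosis, repair and p53 control were tested. In all 3 replicates 9 (32.1%) were lower and 4 (14.3%) higher, beside 19.7% and 20.4% of all genes. None passed in limma's test, as 0% of all genes did, and their median was −0.06. At an unadjusted p under 0.05 in that test, 6 (21.4%) were lower and 2 (7.14%) higher, against 8.93% and 9.23% of all genes. Beside Trp53, the 4 with the smallest p were the repair factor gene Xpc (−0.35 ± 0.10), the checkpoint gene Sfn (0.31 ± 0.09), the kinase inhibitor gene Cdkn1a (−0.89 ± 0.53) and the death receptor gene Tnfrsf10b (−0.72 ± 0.53), each with adjusted p = 0.279 in limma's test. These genes share every array with the members, so the lists are not independent.

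Other gene groups differed between genotypes on the slide where the members moved most. All 12 tested genes of the hypoxia response had a mean below 0, against 5898 of all 12000 genes. Of the 12, 8 were lower in all 3 replicates, beside 19.7% of all genes. The medians of this list were −0.05, −2.08 and −2.13 in replicates 1, 2 and 3, and Egln3, Ldha and Vegfa had the smallest p (−0.98, −1.39 and −0.93). The 5 tested macrophage markers had medians of 0.24, 0.64 and 0.58, with Aif1 at 0.45, Adgre1 at 0.51 and Ptprc at 0.43. In all 3 replicates 4 of the 5 were higher, beside 20.4% of all genes. Of 6 listed liver markers, each with a probe, the 3 tested had medians of −0.06, 1.03 and 0.88. Their means were 0.63 for Fgb, 1.03 for Afp and 0.42 for Ahsg. In wild type, Ahsg was well above background on 0 arrays of slide 2. The 5 erythroid markers had medians of −0.13, 0.09 and 0.18, and Alas2, Hba-a1 and Hbb-bh1 had means of 1.05, 0.57 and −0.86. Of 6 listed adrenal markers, each with a probe, the 1 tested, Mc2r, had 0.22, 0.41 and 0.36. Kidney markers had medians of −0.03, −0.15 and −0.02, and 8 of the 12 had a mean below 0. Six2, Sall1 and Gata3, which had the smallest p, were at −0.31, −0.27 and −0.41, while Cited1, Eya1, Nphs1 and Wt1, named after their values were seen, were at 0.24, 0.22, 0.13 and 0.01. The part of these groups in the ratios of the p53 target genes was not tested.

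**Figure D5:**
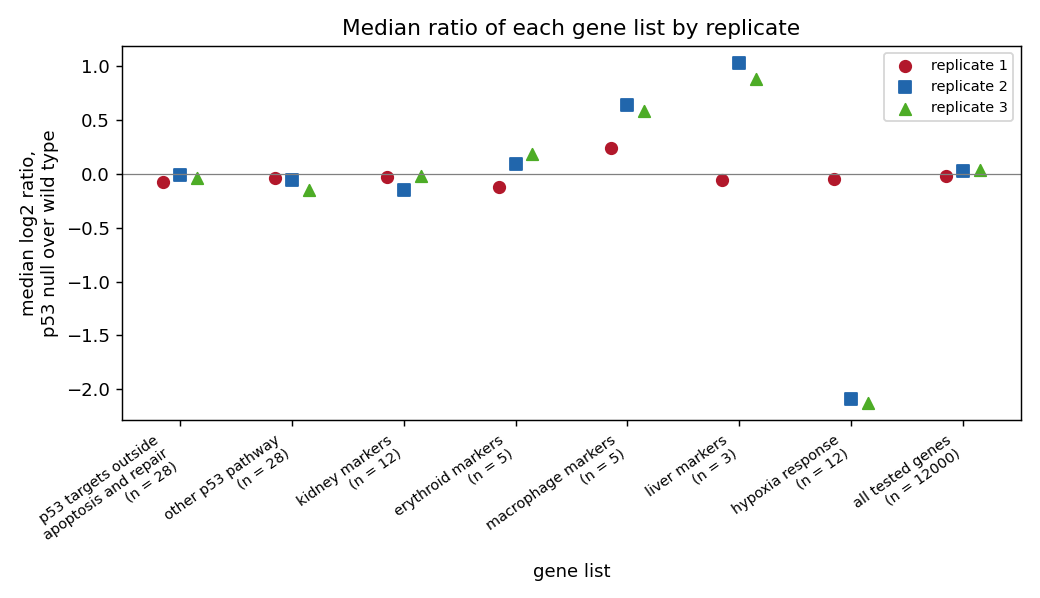
Median log2 ratio of null over wild type (y axis) of each gene list (x axis, with the number of tested genes), with a symbol per replicate. The p53 target genes lie between −0.07 and −0.02, close to all tested genes, whereas the hypoxia list lies at −2.08 and −2.13 in replicates 2 and 3 and at −0.05 in replicate 1.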

How the data were processed

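Null and wild-type kidney RNA were hybridised against each other on 8 Agilent arrays. Per the labels' protocols, total RNA came from silica columns and cDNA was dye-labelled directly. Spot and local background brightness is stored as linear intensity in the scanner files that the authors deposited. The headers of these files give Agilent Feature Extraction 10.5.1.1, whereas version 6.1 stands in the submitters' processing notes. The program's log10 ratio is deposited too, both there and in the value table. After its sign was set to null over wild type, it matched that table to within 4.94e-06. The table's column medians were 0.0083, −0.0024, 0.0042 and 0.0015 (replicate 1), 0.00083 and 0.0064 (replicate 2) and 0.0064 and 0.011 (replicate 3).

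From the intensities, median signals were used, since no mean spot signal is held in the files. Background was corrected with normexp (offset 50, which compresses ratios of dim probes), then loess was applied within arrays (limma 3.58.1, R 4.3.3). The 1639 control spots carried no weight, and outlier-flagged spots became missing values. Repeat spots were averaged, ratios were set to null over wild type, and both dye orientations were averaged per replicate. Channel levels come from Aquantile scaling. RefSeq accessions named 25097 of 41174 probes (GRCm38.p6 annotation; the headers give mm9 for the array design, so probe coordinates are not printed). A probe was kept (20880) if null or wild type exceeded background clearly on 50% or more of each replicate's arrays, and 20865 could be tested. The fit had 4.22 degrees of freedom. It was tested on simulated data with 3 independent values per probe, which does not cover replicates that share a slide or an RNA.

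The member genes and all gene lists were chosen with earlier results of these data known. Every listed member is accounted for. Replicate values are printed for members with 1 sign in all replicates, a mean of at least 0.5 in size or an unadjusted p under 0.05, with up to 5 genes of the other p53 list and 3 of each marker list by smallest p. Values per replicate of 8 further members (Ptp4a3, Trp53i11, Phlda3, Ei24, Abhd4, Gls2, Ak1 and Slc19a2) were added after they were seen. Precision is limited by the number of replicates and slides. The alternatives, 14 in all, changed normalization, background, filter, probes, dye, slide and replicates.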

Additional observations from a re-analysis of the deposited data

Results flagged for a closer look

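For Cyfip2, 1 of the 8 arrays lay far from the others: its log2 ratio of null over wild type was −1.08 on an array of replicate 1 with null in Cy5, while the other 7 arrays lay between −0.65 and −0.32. All 8 were below 0. This was the only one of the 28 tested members with such an array. Chance alone gives such an array in about 1 in 20 groups of independent samples, and the arrays of a replicate share their RNA.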

How the results depend on the processing

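Over 14 alternatives the mean ratios of 21 of the 28 tested members kept their sign, among them Ccng1, Psrc1, Pltp, Cyfip2, Cd82, Plk3, Trp53inp1, Trp53inp2 and Ptp4a3. No alternative used slide 1 alone, where Ptp4a3 (−0.50) and Trp53inp2 (−0.03), for example, had the opposite sign to their means. The sign turned in 22 of 390 comparisons of a member with an alternative, all of them in Trp53i11, Btg2, Plk2, Slc19a2, Tap1, Dgka and Ccnk, whose means lay between −0.08 and 0.03. Median centring in place of loess, under which the median of all genes was 0.15, gave 2 members higher in all 3 replicates and a members' median of 0.0768, with Btg2 at 0.0808, Plk2 at 0.0133, Slc19a2 at 0.131 and Dgka at −0.00474. Arrays with null in Cy5 alone gave 3 members higher and a median of 0.0372, with Btg2 at 0.00461, Plk2 at 0.0900, Slc19a2 at 0.0730 and Dgka at −0.0194; arrays with null in Cy3 alone gave Tap1 0.0593 and Trp53i11 −0.00472. The mean of a gene's probes gave 3 members higher. Counted over single arrays, 4 members were lower on all 8 and 0 higher, against 7.91% and 7.58% of all genes. Calls numbered 0 with 3 replicates, where 8 members had an unadjusted p under 0.05 in limma's test (7 lower and 1 higher, against 8.93% and 9.23% of all genes). With the replicate as a random block they numbered 4, all lower, against 3.08% of all genes. With slide as a fixed block they numbered 13 (9 lower and 4 higher, against 22.7% and 20.4% of all genes), where the spread comes from slide 2 alone. With slide as a fixed block or 1 value per slide, Trp53i11 had −0.0684 and Plk2 0.0138. Without background correction, Trp53i11 had −0.0133 and Dgka −0.00304.

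Leaving out each replicate in turn gave 0 to 20 members called. In every remaining replicate 10 to 14 members were lower and 5 to 12 higher, and 9 to 16 of the other p53 genes were lower. The upper ends came without replicate 1, which leaves 1 slide. There, limma called 27.2% of all genes lower and 32.9% higher. Of all 12000 genes, 4713 were lower and 5558 higher in both replicates 2 and 3. Ranges were −0.0960 to 0.188 for Trp53i11, −0.0976 to 0.0336 for Plk2, −0.209 to 0.0372 for Slc19a2, −0.0321 to 0.0325 for Dgka and −0.0265 to 0.0702 for Ccnk. The causes of these changes were not tested. Every tested value is a ratio within an array, so null and wild type are paired by array throughout. Signal over background limits Tap1, Ccnk and the 5 members not tested.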
